A study of Mus musculus with 12 samples.

Results

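Cd4 was compared with 9 genes of the T cell receptor apparatus, Cd3e, Cd3d, Cd3g, Cd247, Cd8a, Lck, Zap70, Lat and Cd5, in macrophages sorted from mouse bone marrow. These 10 genes were taken by symbol from 18467 genes, and all 10 have a row in the deposited table. Cd4 was chosen by its large difference between niche and general macrophages in normal marrow, so its values in that comparison are a description and carry no test. The same holds for the other 9 genes in that comparison, which were set beside it to ask whether Cd4 transcripts come with those of a T cell programme.

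The study sequenced ribosome-depleted total RNA of 12 libraries, 3 in each of 4 groups, from bone marrow with or without bone metastases. Mice of the metastatic groups were 8-week-old Albino B6 females given E0771 breast cancer cells, a mouse mammary carcinoma line, through the caudal artery. Mice of the normal groups were healthy controls, for which the labels state neither strain nor age. No genotype, transgene or other agent is named for any group. General macrophages were sorted as live cells positive for CD11b and F4/80, and niche macrophages as live cells positive for VCAM1, CD163 and CCR3, from flushed femur and tibia after lysis of red cells. Both sorts are named general macrophages in the sample titles, and the antigens were taken to decide the population. The replicates are described as coming from different mice, and neither gate holds a T cell antigen or a step named as removing T cells. The 4 groups are called general normal, general metastatic, niche normal and niche metastatic below, with libraries 1 to 3, or A to C in niche normal, whose table columns carry other numbers than the titles.

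CD4 is a surface glycoprotein that binds MHC class II and carries the kinase LCK on its cytoplasmic tail, and in helper T cells it acts as a coreceptor of the T cell receptor. The CD3 chains and CD3 zeta, the product of Cd247, transmit the receptor's signal through ITAM motifs, which LCK phosphorylates, after which ZAP70 binds them and phosphorylates the adaptor LAT. CD4 is also known on some monocytes, resident tissue macrophages and dendritic cells, which lack the CD3 complex.

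Windows of 250 bases before annotated start sites were taken from a RefSeq table (GRCm38.p6) for 9 of the 10 genes, 12 windows in all, and no window of Cd4 was used here. Those of Lck and of the 3 CD3 genes are shown because Lck was high in all 3 niche normal libraries, as Cd4 was, while each CD3 gene was high in at most 1 library of a group. Cd3d was also above all general normal libraries in niche normal, but with 1 high value (0.487, 21.4 and 0.502 against 0.150 to 0.356 CPM). Capitals mark matches, on either strand, to 4 short motifs: TGTGGT of RUNX factors, CTTTGA of TCF factors, GATAAG of GATA factors and GAGGAA of PU.1, the myeloid ETS factor. No matches overlapped each other. The Lck windows lie at chr4:129573642-129573891 and chr4:129558373-129558622, both on the minus strand. The Cd3e window lies at chr9:45009612-45009861 on the minus strand, that of Cd3d at chr9:44981536-44981785 on the plus strand and that of Cd3g at chr9:44980432-44980681 on the minus strand.
Lck, first window: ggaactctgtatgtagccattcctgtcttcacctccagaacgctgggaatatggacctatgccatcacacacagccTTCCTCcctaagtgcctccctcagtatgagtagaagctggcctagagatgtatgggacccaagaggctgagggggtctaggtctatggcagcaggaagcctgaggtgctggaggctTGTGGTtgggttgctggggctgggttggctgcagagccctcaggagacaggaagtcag
Lck, second window: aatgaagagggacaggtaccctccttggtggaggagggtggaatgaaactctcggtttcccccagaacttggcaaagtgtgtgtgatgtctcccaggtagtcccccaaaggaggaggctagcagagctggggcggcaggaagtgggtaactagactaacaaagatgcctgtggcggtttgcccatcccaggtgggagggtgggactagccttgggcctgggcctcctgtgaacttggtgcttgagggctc
Cd3e: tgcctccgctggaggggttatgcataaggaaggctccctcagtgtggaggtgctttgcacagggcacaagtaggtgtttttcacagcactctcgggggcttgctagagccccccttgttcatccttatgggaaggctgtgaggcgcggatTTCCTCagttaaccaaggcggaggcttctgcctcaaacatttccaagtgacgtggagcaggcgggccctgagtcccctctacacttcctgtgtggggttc
Cd3d: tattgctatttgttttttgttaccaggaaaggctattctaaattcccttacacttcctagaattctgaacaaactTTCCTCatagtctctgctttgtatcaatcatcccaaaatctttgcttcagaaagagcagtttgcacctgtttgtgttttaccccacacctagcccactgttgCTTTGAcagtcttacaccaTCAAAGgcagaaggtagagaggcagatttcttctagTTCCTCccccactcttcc
Cd3g: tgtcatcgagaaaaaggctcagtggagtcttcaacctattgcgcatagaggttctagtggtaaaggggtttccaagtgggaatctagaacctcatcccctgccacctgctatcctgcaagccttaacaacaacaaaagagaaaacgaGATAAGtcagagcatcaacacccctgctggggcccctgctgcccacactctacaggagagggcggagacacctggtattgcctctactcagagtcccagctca

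The first Lck window held 1 RUNX and 1 PU.1 match, and the second held none of the 4 motifs. The Cd3d window held 2 TCF and 2 PU.1 matches, the Cd3e window 1 PU.1 match and the Cd3g window 1 GATA match. Of 32851 RefSeq windows of the same length, 14% held the RUNX letters, 13.8% the TCF letters, 6.55% the GATA letters and 23.3% the PU.1 letters. In the windows not shown, PU.1 letters occurred once each for Cd5, Cd8a and Lat and in the first and second windows of Zap70, which also held 1 TCF and 1 RUNX match respectively, and the Cd247 window held no match. A match describes the letters only and is not a binding site.

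Library totals ran from 13688000 to 30332400 expected counts. Levels are given as CPM, counts relative to the library total scaled to a common size by TMM (trimmed mean of M values), and 3 counts, taken as the floor of detection, corresponded to 0.109 to 0.243 CPM depending on the library. Floors cover counting error only, since no molecular identifiers are described. Of the 18467 genes 12882 had enough counts to be tested, among them 8 of the 10 genes described here, and Zap70 and Lat were left out for low counts. Genes are called at an adjusted p under 0.05 in edgeR's quasi-likelihood test. The genes of the niche gate antigens went with that gate. Vcam1 was 1165.7 ± 394.7 CPM in niche metastatic against 82.4 ± 13.5 in general metastatic (SD, n = 3 each; log2 fold change 3.82 ± 0.29 SE, adjusted p = 7.69e-07). Cd163 (5.20 ± 0.79, adjusted p = 0.00115) and Ccr3 (3.54 ± 0.40, adjusted p = 3.7e-05) were also called higher there, and Itgam, the gene of CD11b, was not (-0.34 ± 0.26, adjusted p = 0.974). The macrophage genes Csf1r and Adgre1, the gene of F4/80, were present in all 4 groups, with group means of 84.6 to 176.4 CPM and 84.0 to 480.2 CPM. Although F4/80 is an antigen of the general gate, Adgre1 was higher in all niche than in all general libraries of either marrow state. Its means were 480.2 against 123.1 CPM in normal marrow and 190 against 84.0 CPM in metastatic marrow. Mertk, a macrophage receptor for dying cells, had means of 2.22 and 1.81 CPM in the general groups against 295.9 and 125.5 CPM in the niche groups, and Fcgr1 had 3.57 and 7.03 CPM against 42.1 and 19.2 CPM, so Mertk was low in the cells sorted as general macrophages, while Fcgr1 overlapped between the populations in both marrow states, with 0.1 CPM in niche normal C. In bulk RNA, fewer cells of a type and less RNA per cell cannot be told apart.

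Cd4 lies at chr6:124864692-124888221 on the minus strand (GRCm38) and overlaps no annotated gene. In general normal it had 1, 0 and 2 counts, or 0.0687, 0 and 0.0999 CPM, all under the floor. In niche normal it reached 87.7, 98.8 and 15.9 CPM from 1081, 1988 and 316 counts. All 3 niche libraries were far above all 3 general libraries, with library C clearly below A and B. The niche mean of 67.5 ± 45.0 CPM (SD, n = 3) was at least 327.4-fold higher than the floor of 3 counts in the shallowest general normal library. In metastatic marrow Cd4 was 19.3, 6.82 and 10.1 CPM in the niche libraries, from 382, 156 and 274 counts. In the general metastatic libraries it was 2.81, 0.0452 and 0.146 CPM, from 77, 1 and 4 counts. The niche libraries again lay above the general libraries with no overlap, and general metastatic 1 alone among the 6 general libraries stood clearly above the floor.

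Ordered by mean, Cd4 was highest in niche normal (67.5 CPM), then in niche metastatic (12.1 ± 6.46), general metastatic (1.00 ± 1.57) and general normal (0.0562 ± 0.0511; SD, n = 3 each). Niche normal and niche metastatic overlapped, through niche normal C, and so did the general groups. In metastatic marrow, where Cd4 was not chosen, its log2 fold change in niche against general macrophages was 3.58 ± 1.58 (SE, adjusted p = 0.548 in edgeR), with all 3 niche libraries higher. It did not pass the threshold, and without general metastatic 1 the value was 6.87 (adjusted p = 0.259). Over 18 alternative settings it ran from 3.02 to 6.87, with adjusted p from 0.259 to 0.751. Against normal marrow, Cd4 in niche macrophages of metastatic marrow differed by -2.48 ± 1.5 (adjusted p = 0.49), and in general macrophages by 4.00 ± 1.69 (adjusted p = 0.944), which without general metastatic 1 was 0.71 (adjusted p = 1). Both values use the normal libraries on which Cd4 was chosen and are not independent of that choice. The difference between those effects, -6.48 ± 2.26, subtracts the comparison that chose Cd4 and is a description with no test. The 4 comparisons share groups pairwise, so their values are not independent of each other.

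**Figure D1:**
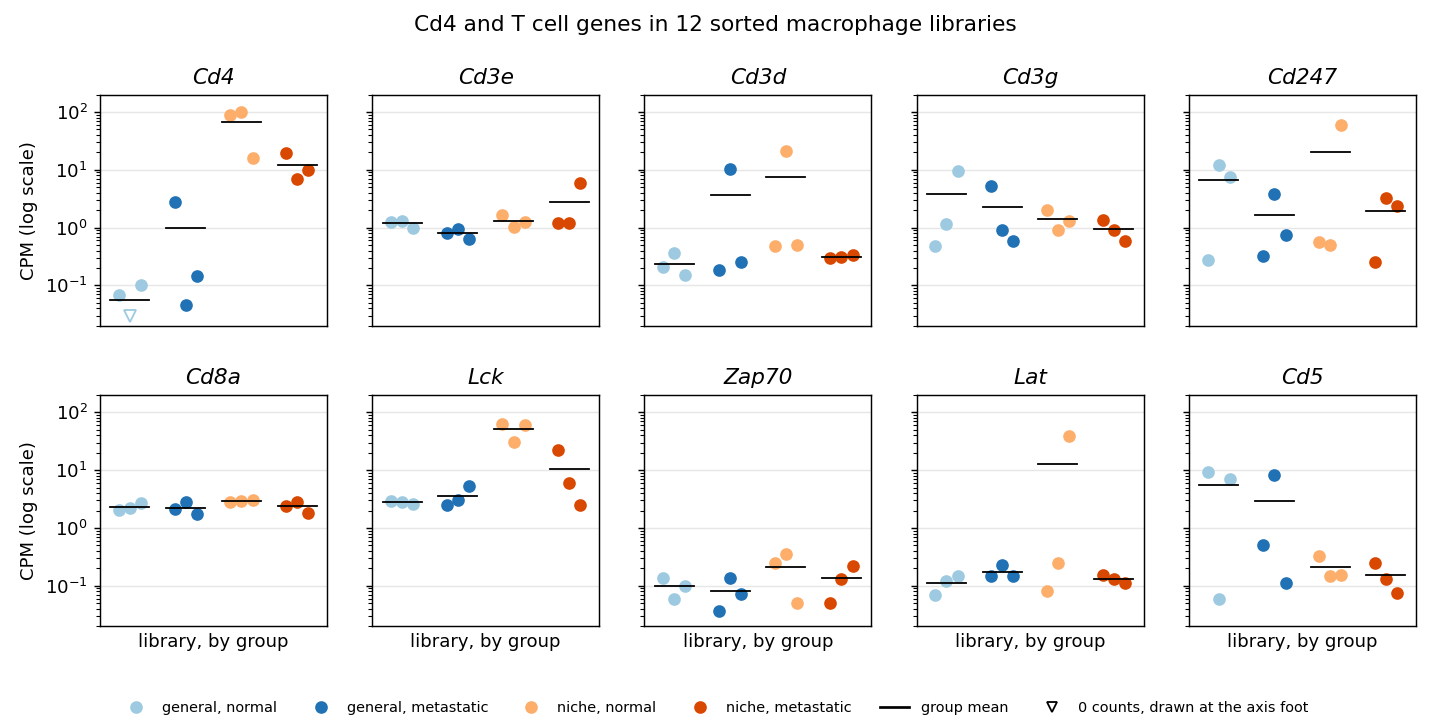
CPM on a log scale (y axis) of Cd4 and 9 T cell genes in each of 12 libraries (points), by group (x axis), with the group mean as a bar (n = 3). Cd4 was 6.82 to 98.8 CPM in the niche libraries and at most 2.81 CPM in the general libraries, Cd8a was level in all groups, and Cd3d, Cd247 and Lat were high in single libraries.

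The CD3 chains, without which the T cell receptor does not reach the cell surface, did not show the levels of Cd4. Their genes lie next to each other on chromosome 9 (GRCm38), Cd3g at chr9:44969572-44980431, Cd3d at chr9:44981786-44987339 and Cd3e at chr9:44998740-45009627. Cd3e, the epsilon chain, was 1.24, 1.31 and 0.999 CPM in general normal and 1.62, 1.04 and 1.26 CPM in niche normal. Those groups overlapped, and the counts of Cd3e lay between 17 and 28 in 11 of the 12 libraries. In metastatic marrow it was 0.803, 0.949 and 0.622 CPM in general libraries and 1.21, 1.22 and 5.84 CPM in niche libraries, the last from 158 counts. The niche libraries were all higher, with a log2 fold change of 1.79 ± 1.98 (adjusted p = 1 in edgeR), and 1 library, niche metastatic 3, held the high value. Cd3e overlaps the predicted genes Gm48719 and Gm48720, and as the strandedness of counting is not given in the sources used here, their reads cannot be told apart.

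Cd3d, the delta chain, was 0.206, 0.356 and 0.150 CPM in general normal and 0.487, 21.4 and 0.502 CPM in niche normal. All niche normal libraries were higher, but 1 library, B, held 431 counts, against 6 in A and 10 in C. In metastatic marrow Cd3d was 0.182, 10.5 and 0.256 CPM in general libraries and 0.303, 0.306 and 0.333 CPM in niche libraries. There the single high library was general metastatic 2, with 233 counts, and the groups overlapped (log2 fold change -3.52 ± 2.56, adjusted p = 0.929 in edgeR). Thus Cd3d was highest in a niche library in normal marrow and in a general library in metastatic marrow, while Cd4 was higher in the niche libraries of both. Cd3g, the gamma chain, was 0.481, 1.13 and 9.69 CPM in general normal, 5.29, 0.904 and 0.585 CPM in general metastatic, 2.03, 0.895 and 1.31 CPM in niche normal and 1.36, 0.918 and 0.591 CPM in niche metastatic. Both high values were in general libraries, and all groups overlapped. Its log2 fold change in metastatic marrow was -1.23 ± 2.15 (adjusted p = 1), which without general metastatic 1 was 0.36.

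Set beside each other per kilobase of exon, Cd4 exceeded the CD3 chains in niche macrophages. In niche normal Cd4 was 21.8, 24.5 and 3.94 CPM per kb, and the mean of Cd3e, Cd3d and Cd3g was 0.429, 4.11 and 0.328 CPM per kb in the same libraries. In niche metastatic Cd4 was 4.78, 1.69 and 2.51 CPM per kb against a CD3 mean of 0.294, 0.250 and 0.599 CPM per kb. The level of Cd4 was thus 4.20 to 50.7 times the CD3 mean in each of the 6 niche libraries, and the lowest ratios were in libraries with a raised CD3 chain, niche metastatic 3 (4.20) and niche normal B (5.96). In the general libraries the ratio was between 0 and 0.23 in 5 libraries and 1.09 in general metastatic 1. The same library held most of the Cd4 counts of the general groups, and it also held a high Cd3g value.

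**Figure D2:**
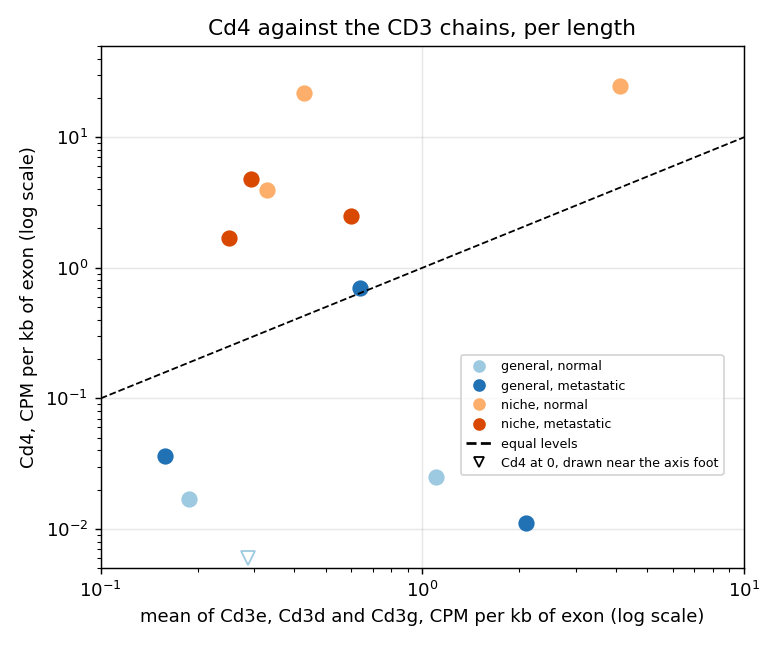
Cd4 (y axis) against the mean of Cd3e, Cd3d and Cd3g (x axis), both in CPM per kilobase of exon on log scales, 1 point per library, with a dashed line at equal levels. All 6 niche libraries lie above the line, general metastatic 1 lies just above it at a ratio of 1.09, and the other general libraries lie below.

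Cd247 (chr1:165788681-165877277), Cd8a (chr6:71373427-71379173) and Cd5 (chr19:10717116-10739002, all GRCm38) did not follow Cd4 either. Cd247 was 0.275, 12.3 and 7.49 CPM in general normal, 0.328, 3.80 and 0.732 CPM in general metastatic, 0.568, 0.497 and 60.8 CPM in niche normal and 0.252, 3.28 and 2.33 CPM in niche metastatic. Its highest value was in niche normal C, the niche normal library with the least Cd4, and the groups overlapped in every comparison. In metastatic marrow its log2 fold change between the populations was 0.27 ± 2.17 (adjusted p = 1 in edgeR), or -0.33 to 1.87 with 1 library left out, and Cd247 overlaps 6 annotated genes, among them Pou2f1 on the other strand.

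Cd8a, the coreceptor chain of cytotoxic T cells, was 2.06, 2.25 and 2.65 CPM in general normal and 2.84, 2.98 and 3.06 CPM in niche normal. In metastatic marrow it was 2.15, 2.80 and 1.72 CPM in general and 2.42, 2.84 and 1.85 CPM in niche libraries. It stayed between 30 and 65 counts in all 12 libraries, and although the niche normal libraries lay just above the general normal ones, the means of 2.96 ± 0.113 and 2.32 ± 0.299 CPM (SD, n = 3 each) were close. The metastatic groups overlapped (log2 fold change 0.09 ± 2.01, adjusted p = 1), a standard error set by the spread of other genes with counts as low. Cd5, a scavenger receptor family protein that restrains receptor signalling in T cells and B-1 cells, was 9.48, 0.0593 and 7.04 CPM in general normal, 0.511, 8.18 and 0.110 CPM in general metastatic, 0.325, 0.149 and 0.151 CPM in niche normal and 0.252, 0.131 and 0.0739 CPM in niche metastatic. The 3 high values were all in general libraries, with a log2 fold change in metastatic marrow of -4.22 ± 2.58 (adjusted p = 0.783) and overlapping groups.

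Of the signalling genes, Lck was high in all 3 libraries of niche normal, the group with the most Cd4, and it lies at chr4:129548344-129573641 (GRCm38). It was 2.95, 2.85 and 2.55 CPM in general normal and 63.8, 30.5 and 60.5 CPM in niche normal, with all niche libraries higher and a log2 fold change of 4.21 ± 1.47 (SE). In metastatic marrow it was 2.52, 3.07 and 5.23 CPM in general and 22.5, 5.90 and 2.48 CPM in niche libraries. The niche libraries of metastatic marrow were spread over a wide range, down to the lowest general library, and the log2 fold change was 1.51 ± 1.32 (adjusted p = 1 in edgeR), or 0.21 without niche metastatic 1. All 3 niche metastatic libraries were below all 3 niche normal libraries for Lck (-2.32 ± 1.35, adjusted p = 0.468), and in general macrophages the marrow states differed by 0.37 ± 1.29 (adjusted p = 1). Per kilobase of exon, Lck was 21.8, 10.4 and 20.6 CPM per kb in niche normal and 7.69, 2.01 and 0.845 CPM per kb in niche metastatic. Those levels are of the size of Cd4, although within niche normal the libraries were ordered differently, with Cd4 lowest in C and Lck lowest in B.

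Zap70 (chr1:36761798-36782818) had 1 to 7 counts in every library, or 0.0365 to 0.348 CPM, near or under the floor throughout. Lat (chr7:126363824-126369570, both GRCm38) had 1 to 5 counts in 11 libraries and 770 counts, or 38.7 CPM, in niche normal C. That library thus held 96.1% of the summed Lat CPM, and it was also the library with the highest Cd247, while Zap70 had 1 count there. A difference in Zap70 was not detectable at this depth, and without the filter on low counts neither gene was called in metastatic marrow (adjusted p = 1 for both in edgeR).

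High values in a single library were common among these genes. For 3 of the 10 genes, Cd3d (61.1%), Cd247 (65.6%) and Lat (96.1%), 1 library held over 50% of the CPM summed over all 12. Among all 12882 tested genes this held for 11.2%, for 2 of the 8 tested genes described here (Cd3d and Cd247), and the median share of the highest library was 23.7% over all tested genes. The highest library held 40.9% of the summed Cd4 CPM and 10.3% of that of Cd8a. Niche normal B held the peaks of Cd4, Cd3d and Zap70, the last at 7 counts. The other peaks lay in niche normal C for Cd247, Cd8a and Lat, niche normal A for Lck, niche metastatic 3 for Cd3e, and general normal 3 and 1 for Cd3g and Cd5. No library held the peaks of more than 1 CD3 chain.

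Across all genes, 318 of 12882 (2.47%) were called in niche against general macrophages of normal marrow, the comparison that chose Cd4, so no call of the 10 genes is drawn from it. In it all 3 niche libraries were above all 3 general libraries for Cd4, Cd3d, Cd8a and Lck, 4 of the 8 tested genes, and for 10% of all tested genes, which is given as a description. In metastatic marrow 107 genes (0.831%) were called. Of the 8 genes 0 were called by edgeR or limma-voom, and 0 of 6 by DESeq2, which gave no adjusted p for Cd4 and Cd3d. Only Cd4 among the 8 had an unadjusted p under 0.05 in edgeR, as did 1108 of all 12882 tested genes. All 3 niche libraries were above all 3 general ones there for 2 of the 8, Cd4 and Cd3e, against 8.34% of all tested genes. Between marrow states, 2 genes (0.0155%) were called in general macrophages and 1 gene (0.00776%) in niche macrophages, none of them among the 8. No unadjusted p of Cd4 is read here, since both values use normal libraries on which it was chosen. The other tested genes among the 8 had no unadjusted p under 0.05 in edgeR in either population. The libraries of metastatic and normal marrow stood apart for Cd3e, lower in metastatic marrow, in general macrophages, against 12.9% of all tested genes in either direction. They stood apart for Cd3d and Lck, both lower in metastatic marrow, in niche macrophages, against 12.7%. The difference between the marrow effects of the populations was called for 0 of 12882 genes (0%) in edgeR, with 1016 genes at an unadjusted p under 0.05 and 410 genes called by DESeq2. The values of Cd4 and of Cd3d (-8.46 ± 3.75, from single high libraries) subtract the normal marrow comparison and are descriptions with no test.

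**Figure D3:**
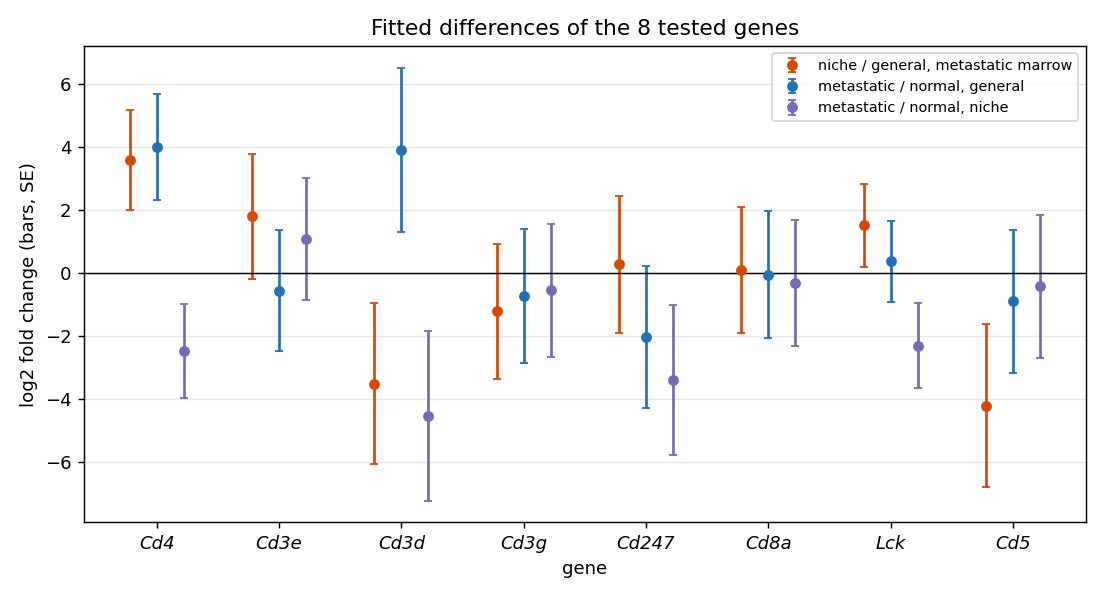
Log2 fold change (y axis) of the 8 tested genes (x axis) in 3 comparisons, with bars of 1 SE from edgeR, n = 3 libraries a group. Cd4 was 3.58 ± 1.58 in niche against general macrophages of metastatic marrow, and no value of the 8 genes passed an adjusted p of 0.05.

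Other genes of the T cell programme gave no calls. Of 20 further T cell genes, among them the receptor constant regions, Il7r, Tcf7, Bcl11b and Themis, 17 were tested, and 0 were called by edgeR or limma-voom or had an unadjusted p under 0.05 in edgeR in any of the 4 comparisons. DESeq2 gave 13 of them an adjusted p and called 0. Their median log2 fold change was 0.88 in normal marrow and 0.23 in metastatic marrow between the populations, against 0.19 and 0.04 over all tested genes. For metastatic against normal marrow the median was -0.46 in general and -1.3 in niche macrophages, against -0.01 and -0.17 over all tested genes. Trac, the constant region of the T cell receptor alpha chain, was 1.02 to 2.43 CPM in all 12 libraries, from 22 to 44 counts. Trbc2, a beta constant region, was 12.6, 17.9 and 7.98 CPM in niche normal and 1.85 to 5.67 CPM in the other 9 libraries, from fractional counts. All niche normal libraries were thus above the others for Trbc2. For Trac niche normal A was the highest (2.43 CPM), and B and C (1.99 and 2.01 CPM) lay below general normal 2 (2.2 CPM). Of the 20 genes, 4 had their highest level in niche normal A, among them Themis, a thymocyte signalling protein, at 42.2 CPM. Another 5 were highest in niche normal B, the library with the most Cd4 and Cd3d: Bcl11b at 33 CPM, Thy1 at 26.3 CPM, Lef1 at 23.6 CPM, Trbc2 at 17.9 CPM and Cd6 at 6.61 CPM. A further 4 were highest in niche normal C, the library with the highest Lat and Cd247: the transcription factor gene Tcf7 at 38.5 CPM, Il7r at 66.5 CPM, Ubash3a at 49.6 CPM and Cd2 at 24.7 CPM. The other genes were highest in general libraries or in niche metastatic 1 or 3.

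The most abundant of these 20 genes were Lcp2 and Ubash3a. Lcp2 encodes SLP-76, an adaptor that myeloid cells also use, and was 217.3 ± 110.6 CPM in niche metastatic and 190.2 ± 41.4 in general metastatic (SD, n = 3 each; adjusted p = 1). Ubash3a, a suppressor of receptor signalling, was 8.62 ± 14.4 and 10.9 ± 10.7 CPM (adjusted p = 1). Of 10 genes of helper and regulatory T cells 7 are in the table and 3 were tested, with 0 called by edgeR, DESeq2 or limma-voom in any of the 4 comparisons and 1 gene at an unadjusted p under 0.05 in edgeR in 3 of them. Zbtb7b, the factor that sets the CD4 lineage in thymocytes, was 118.6 ± 29.2 CPM in niche metastatic and 166.2 ± 53.9 in general metastatic (log2 fold change -0.49 ± 0.43, adjusted p = 1), so it did not follow Cd4. Ikzf2, which encodes Helios, was higher in all 3 niche metastatic libraries (52.8 ± 6.17 against 22.2 ± 13.4 CPM) without passing (1.25 ± 0.58, adjusted p = 0.573). Il2ra, Icos and Cd40lg were at 3 counts or fewer in every general normal and niche normal library. In metastatic marrow Icos had 209 counts and Cd40lg 109 in general metastatic 2, the library with 233 counts of Cd3d, and Il2ra had 115 counts in niche metastatic 3, with 3 counts or fewer in the other libraries. Foxp3, Ctla4 and Tbx21 were not analysed here.

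The MHC class II genes H2-Aa and H2-Ab1 were higher in niche metastatic, where Cd4 was also higher, and Il16 was not called. Of 6 genes for CD4 ligands and the related receptor LAG3, only these 2 were called there, and they encode the chains of the MHC class II molecule I-A. H2-Aa was 275.9 ± 10 CPM in niche metastatic against 70.4 ± 23.9 in general metastatic (SD, n = 3 each; log2 fold change 1.97 ± 0.28, adjusted p = 0.000671). H2-Ab1 was 288.2 ± 68.7 against 51.3 ± 13.5 CPM (2.49 ± 0.33, adjusted p = 0.000222), and for both genes all 3 niche libraries were higher. Il16, which encodes a secreted CD4 ligand, was 104.1 ± 43.9 and 110.9 ± 23.5 CPM (adjusted p = 1). Of 10 genes with which myeloid cells transmit signals of their own ITAM receptors, 0 were called in metastatic marrow by edgeR or limma-voom, and 0 of the 9 to which DESeq2 gave an adjusted p, and 1 had an unadjusted p under 0.05 in edgeR. Syk, the ZAP70 relative of myeloid and B cells, was 499.5 ± 65.3 CPM in niche metastatic and 402.6 ± 108.3 in general metastatic (0.31 ± 0.24, adjusted p = 0.97), and the LCK relative Lyn was 254.4 ± 119.1 and 290.0 ± 13 CPM (adjusted p = 1). Fyn, another Src family kinase, which T cells also use, was 26.8, 8.78 and 7.13 CPM in niche metastatic and 0.62, 0.407 and 6.95 CPM in general metastatic, higher in all 3 niche libraries as Cd4 was (2.42 ± 1.60, adjusted p = 0.855). In normal marrow Fyn was 31.9 to 56.6 CPM in niche and 0.206 to 10.1 CPM in general libraries. Zap70 had 1 to 6 counts in the metastatic libraries.

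Marker lists of other cells that could enter a gate were summed per library. The T cell list of 10 genes, which holds Cd3e, Cd3d and Cd3g, summed to 60.8 to 95.6 CPM in niche normal against 33.1 to 35.2 CPM in general normal, and to 23.9 to 31.7 CPM in niche metastatic against 22.2 to 32.1 CPM in general metastatic. It was higher with Cd4 in normal marrow and overlapped between the populations in metastatic marrow, where Cd4 did not. Its values in normal marrow are a description, since the list holds CD3 genes. In metastatic marrow 0 of its 10 genes were called by edgeR or limma-voom, and 0 of the 6 to which DESeq2 gave an adjusted p. None was at or under 3 counts in all libraries of a group, and its most abundant genes were Tcf7 and Bcl11b. The B cell list of 6 genes summed to 705.5 to 899.0 CPM in niche normal against 36.8 to 56.2 in general normal, and to 56.1 to 297.8 CPM in niche metastatic against 1.86 to 25.9 in general metastatic. It moved with Cd4 in both marrow states, and Pax5, the B lineage factor, was called higher in niche metastatic (3.90 ± 0.91, adjusted p = 0.0474), 1 of its 6 genes in edgeR and 1 of 4 called by DESeq2. The abundant B cell gene Ms4a1, which encodes CD20, was 73.0 ± 65.3 against 5.51 ± 8.06 CPM (3.72 ± 1.11, adjusted p = 0.21).

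The plasmacytoid dendritic cell list, with 7 of 8 genes in the table, summed to 153.7 to 367.9 CPM in niche normal against 71.0 to 171.6 in general normal, and to 76.4 to 118.6 CPM in niche metastatic against 43.8 to 91.8 in general metastatic. Those ranges overlapped, and 0 of its 4 tested genes were called in edgeR in either comparison of populations. In normal marrow DESeq2 called 1 of them, Ly6d, and limma-voom also called 1. Most of the sum was Tcf4, followed by Ccr9, and the list's defining marker Siglech was at or under 3 counts in 10 libraries, all niche normal ones included, and had 184 counts in niche metastatic 3 and 136 in general metastatic 3. Ly6d of the same list was 44.1, 7.31 and 46.9 CPM in niche normal and at or under 3 counts in the other 9 libraries, so it was higher with Cd4 in normal marrow, and Bst2 was 12.9 CPM in niche normal B, 8.23 and 12.8 CPM in niche metastatic 1 and 2 and 3.62 CPM in general metastatic 3. Cox6a2 had 138 counts in niche metastatic 1, and Pacsin1 286 counts in niche metastatic 2. The conventional dendritic cell list of 8 genes summed to 26.0 to 139.7 CPM in niche normal against 22.6 to 43.1 in general normal, and to 27.0 to 74.1 CPM in niche metastatic against 3.71 to 23.9 in general metastatic, apart in metastatic marrow. Of 7 tested genes 0 were called in edgeR in either comparison. DESeq2 called 5 in normal marrow and 1, Zbtb46, in metastatic marrow, and its calls over all genes are given below. Of the 5, Zbtb46, Clec9a and Itgax had higher means in niche normal. Cd209a and Clec10a were lower there, at 0 against means of 20.1 and 13.7 CPM in general normal. The most abundant genes of the list were Itgax and Zbtb46, and Xcr1, Cd209a and Clec10a were at or under 3 counts in all niche normal libraries but had 231, 369 and 267 counts in single niche metastatic libraries (2, 3 and 2). Cd209a was 12.3 to 26.9 CPM in general normal, while in niche normal Flt3 was 31.9 CPM in A, Clec9a 25.9 CPM in C and Zbtb46 46.5 and 60.7 CPM in A and C. The NK cell list of 10 genes summed to 161.3 to 455.1 CPM in niche normal and 98.5 to 174.2 in general normal, and to 130.4 to 351.1 in niche metastatic and 123.5 to 192.0 in general metastatic, with overlap in both, led by Nkg7 and Klrk1, with Gzmb and Klre1 at or under 3 counts in all niche normal libraries. In niche normal, Eomes was 44.1 CPM in A, Klrb1c 39.8 and 23.3 CPM in A and B, and Gzma 13.6 CPM in C, with Gzma and Eomes at 4 counts or fewer in every other library. Klrk1 and Nkg7 also peaked in C, the library with the highest Lat, at 54.4 and 386.5 CPM. Klrk1 was next highest in general normal 1 (27.4 CPM), and Nkg7 in niche metastatic 2 (339.5 CPM). Gzmb had 10.9 and 3.25 CPM in niche metastatic 2 and 3, and Klre1 2.52 CPM in general metastatic 1. For megakaryocytes and mast cells, which also use LAT, the sum of 8 genes was 172.6 to 336.8 CPM in niche normal and 31.1 to 130.2 in general normal, and 132.3 to 233.9 in niche metastatic and 80.4 to 96.9 in general metastatic, apart in both marrow states and mostly from Kit and Ms4a2. Of 5 tested genes 0 were called in edgeR, and DESeq2 called 2, in normal marrow. Of these Ms4a2 was higher in niche normal, and Fcer1a was lower, at 0 against a mean of 2.3 CPM in general normal. The megakaryocyte genes Gp9, Pf4 and Gp1bb were at or under 3 counts in all niche normal and niche metastatic libraries, and Gp9 and Pf4 had 83 and 84 counts in general metastatic 3. Itga2b, a further megakaryocyte gene of the list, had 25.3 CPM from 504 counts in niche normal C, the library with 770 counts of Lat, 5.17 CPM in niche metastatic 3, and 4.31 and 5.23 CPM in general metastatic 1 and 3, and Gp1bb had 2.12 CPM in general metastatic 1. The part of these cells in the levels of Cd4, Lck and Lat was not tested.

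Genes of resident macrophages, some of which are known to carry CD4, separated the populations in both marrow states. The 8 genes in the table summed to 2383 to 2431.5 CPM in niche normal against 59.7 to 88.4 in general normal, and to 957.2 to 1629.1 CPM in niche metastatic against 22 to 73.9 in general metastatic. Of 7 tested genes 5 were called higher in niche metastatic: Maf (4.87 ± 0.42, adjusted p = 2.56e-06), Mrc1 (4.87 ± 0.65, adjusted p = 0.00026), Siglec1 (4.20 ± 0.75, adjusted p = 0.00536), Spic (4.25 ± 0.82, adjusted p = 0.0117) and Cd5l (4.84 ± 0.99, adjusted p = 0.0181). Maf is a transcription factor of resident macrophages, Mrc1 and Siglec1 encode the mannose receptor and CD169, and Spic is the factor of red pulp and marrow macrophages that recycle iron. Mrc1 was 472.0 ± 163.1 CPM in niche metastatic against 16.2 ± 15.1 in general metastatic, and Maf 258.6 ± 82.9 against 8.86 ± 1.27 (SD, n = 3 each). Timd4 was at or under 3 counts in all general libraries and 22.5 ± 4.59 CPM in niche metastatic (adjusted p = 0.114), and Lyve1 was at 0 in all niche libraries.

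**Figure D4:**
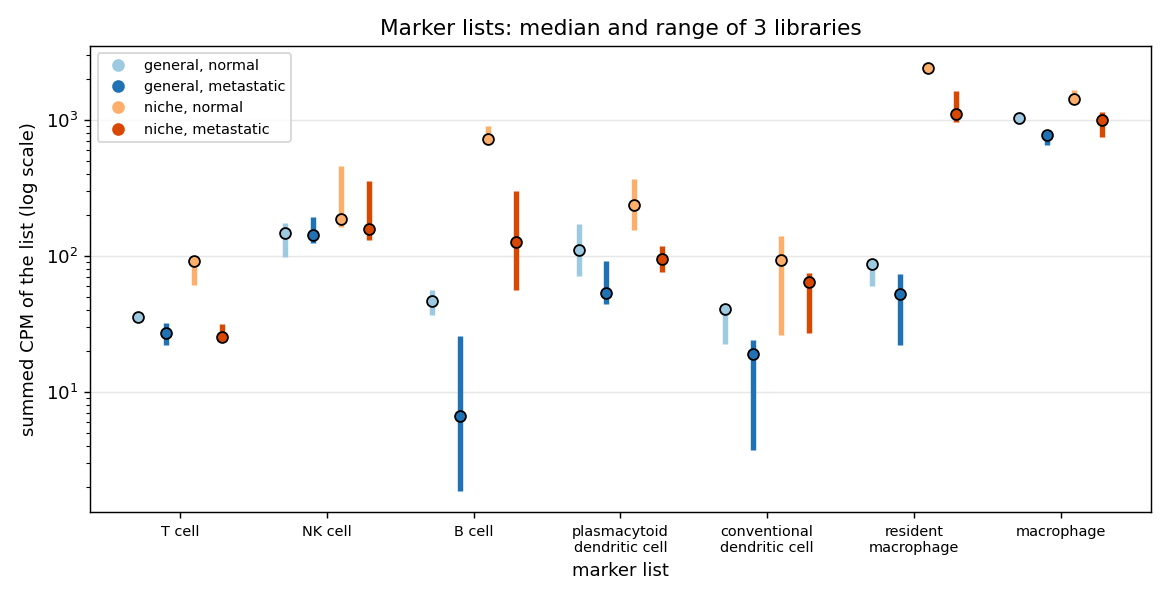
Summed CPM on a log scale (y axis) of 7 marker lists (x axis) in the 4 groups, with the median as a point and the range of 3 libraries as a bar. The resident macrophage and B cell lists are higher in niche than in general macrophages of both marrow states, and the ranges of the T cell list are apart in normal marrow (60.8 to 95.6 against 33.1 to 35.2 CPM) and overlap in metastatic marrow.

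The 5 genes whose levels were most like those of Cd4 were Asb2, Sh3pxd2a, Gm4951, Slc7a2 and Kitl, with Pearson's r of 0.97 to 0.98 between log2 CPM values over the 12 libraries, ranked among 8144 genes whose mean reached 10 CPM. These values describe 12 points that share 4 groups and their scaling, include the normal marrow libraries on which Cd4 was chosen, and carry no p. Of the 9 T cell genes Lck alone reached that mean and could be ranked, and its r with Cd4 was 0.77. The tested genes under that mean had lower values, such as Cd8a (0.42), Cd3e (0.32), Cd3d (0.22) and Cd5 (-0.53), and no r is given here for Zap70, Lat or the further T cell genes. Asb2, a subunit of a ubiquitin ligase, had means of 0.132 and 1.63 CPM in general normal and general metastatic and of 66.2 and 16.9 CPM in niche normal and niche metastatic. Kitl, which encodes stem cell factor, had 0.290, 1.70, 80.8 and 51.2 CPM in the same order. Slc7a2, a transporter of cationic amino acids, had 0.146, 2.57, 61.2 and 39.4 CPM, and Sh3pxd2a, which encodes a scaffold protein of podosomes, 0.653, 2.36, 54.3 and 30.0 CPM. The higher mean of Asb2, Slc7a2 and Kitl in general metastatic came mainly from 1 library, with medians of 0.0732, 0.271 and 0.362 CPM there against highest values of 4.78, 7.33 and 4.6 CPM.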

How the data were processed

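Macrophages were sequenced in 12 bulk libraries, and the authors deposited 1 table of expected counts for 18467 genes, of which 73.9% of values are whole numbers. STAR 2.7.3a, Partek, DESeq2 1.40.2, R 4.3.1 and build mm10 are named per the submitters' processing notes, without their roles, and the counting program, annotation and strandedness are not given in the sources used here. Expected counts were rounded, filtered with filterByExpr, scaled by TMM and fitted over all 12 libraries with 4 group means in edgeR 4.0.16 (R 4.3.3), using quasi-likelihood F-tests with Benjamini-Hochberg adjustment over 12882 genes. Genes with an adjusted p under 0.05 are called, and standard errors come from the F statistic. The script was checked on simulated counts. Gene coordinates and exon lengths come from GENCODE M21 (GRCm38), which matched 18026 rows. Replicate pairs all differed beyond sampling noise. The table columns of niche normal were assigned to the group only. Same-numbered libraries did not deviate together (correlations between -0.01 and 0.03), so no block was used. The members, gene lists and rules were chosen with earlier results of these data known. Named are the 10 genes, called genes in metastatic marrow or between marrow states (at most 4 per list), the 2 most abundant genes of each list, the 5 genes most like Cd4 and the neighbours of Cd4, and the remaining names were added after values were seen. As alternatives the fit was repeated with each library left out, with a replicate block, on only the 6 libraries compared, without the filter, by limma-voom using sample weights (limma 3.58.1), by DESeq2 1.42.0, and with RLE or no scaling factors.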

Additional observations from a re-analysis of the deposited data

How the results depend on the processing

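None of the 564 adjusted p-values of the tested genes described here under any alternative was under 0.05, and the lowest was 0.128, for Lck between marrow states in niche macrophages with DESeq2. DESeq2 gave no adjusted p for Cd4 and Cd3d in 4 comparisons each. Cd4 kept its direction in all alternatives run, leaving aside the comparison on which it was chosen. Outside the population comparison in normal marrow, the direction changed in 25 cases, 23 of them on leaving out 1 library. In that comparison Cd3e was -0.02 without niche normal A, Cd3g 0.81 without general normal 3, and Cd247 -3.64 without niche normal C and -0.40 with limma-voom, against 0.15, -1.42 and 1.62. The log2 fold changes over the libraries left out ran, between populations in metastatic marrow, from -1.70 to 0.36 for Cd3g, -0.33 to 1.87 for Cd247 and -0.07 to 0.29 for Cd8a. Between marrow states they ran from -2.33 to 1.49 for Cd3g, -0.26 to 0.08 for Cd8a and 0 to 0.58 for Lck in general macrophages, and from -0.11 to 1.42 for Cd3e, -4 to 1.86 for Cd247 and -0.98 to 0.01 for Cd5 in niche macrophages. For the difference of the marrow effects they ran from -2.05 to 1.77 for Cd3g, -2.15 to 3.90 for Cd247 and -0.16 to 3.69 for Cd5, and limma-voom gave -0.41 for Cd3g and 1.13 for Cd247. The cause was not tested.

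The number of called genes depended on the tool and the libraries. Between populations in normal marrow 318 genes became 1825 with DESeq2 (888 higher, against 193 of 318), 186 with limma-voom and 163 with the 6 libraries alone, and 176 to 402 with 1 library left out. In metastatic marrow 107 became 480, 178 with limma-voom, and 66 (without niche metastatic 1) to 121. Between marrow states in general macrophages 2 became 0 with library size only, 5 without the filter, 141 with DESeq2, 23 with limma-voom and 0 to 4 with 1 library left out. In niche macrophages 1 became 0 with RLE scaling, library size only or 6 libraries, 3 without the filter, 954 with DESeq2, 11 with limma-voom and 0 to 66 (without niche normal B). The difference of the effects had 0 calls, 410 with DESeq2 and 0 to 16 with 1 library left out.

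With a replicate block, where the numbers are shared, 117 genes were called between populations in metastatic marrow and 3 between marrow states in general macrophages. Cd4 was then 5.05 (adjusted p = 0.696) and 2.91 (adjusted p = 1). The numbers pair no mice by the labels, and the block could not be fitted for niche normal, whose columns carry other numbers. Depth limits Zap70 in all libraries, Lat in all but niche normal C and Cd4 in the general libraries other than general metastatic 1, which lie at or near 3 counts.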

Other observations

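Of the 8 nearest rows of the table, 4 on each side within 70191 bases, 7 were tested and 0 were called in edgeR in any of the 4 comparisons, with Lag3 called by DESeq2 in normal marrow. The nearest, P3h3 at 6939 bases, was at 0 counts in all libraries. Lag3, the CD4 relative that also binds MHC class II and lies 16139 bases away, had means of 12.3 ± 21.1 and 6.08 ± 5.55 CPM in niche normal and niche metastatic against 0.0364 ± 0.0319 and 0.118 ± 0.111 CPM in general normal and general metastatic (SD, n = 3 each), the same order of means as Cd4. The niche normal mean of Lag3 came from library C, with 731 counts against 1 and 3 in A and B, and in niche metastatic it had 220, 3 and 189 counts. Its groups overlapped in metastatic marrow, where its log2 fold change was 5.61 ± 3.00 (adjusted p = 0.656). The metabolic enzyme gene Tpi1 was 101.9 ± 46.4 CPM in niche metastatic and 121.9 ± 17.1 in general metastatic (adjusted p = 1), Cdca3 97.4 ± 26.0 and 126.9 ± 54.2 CPM (adjusted p = 1), and Usp5 67.9 ± 52.3 and 52.7 ± 14.1 CPM (adjusted p = 1). The remaining neighbours Ptms, Mlf2 and Cops7a had log2 fold changes of -0.23, -1.59 and -1.24 (adjusted p = 1 each).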
